A study of Mus musculus with 4 samples.

Results

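Solute carriers are the membrane proteins that move sugars, amino acids, metals, nucleosides, organic acids and ions across the plasma membrane and the membranes of organelles. Their members were taken by symbol: every gene of either table whose symbol starts with Slc, a family number, the letter a and a member number, without 5 carriers of iron, arginine and cystine. This gave 254 genes of 44 families, out of 15881 genes in either table, with 247 in each table and 240 in both. Of the 254, 247 encode carriers and 7 match by symbol only, being scaffold, opposite-strand or pseudogene entries. Symbols with another letter after the family number, such as those of several nucleotide sugar carriers, fall outside the rule.

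The cells were dendritic cells grown from bone marrow (BMDCs) of C57BL/6 mice aged 8 weeks. The mice were either wild type (WT) or lacked GOLPH2 (KO, GOLPH2-/-), a Golgi membrane protein that the gene Golm1 encodes. Cells of each genotype were sequenced without stimulation, or after priming with IFN-gamma for 16 h followed by the bacterial product LPS for 4 h, here called stimulated. The 4 groups had 1 library each, and the 2 deposited tables compare KO with WT within each state. The labels used here do not say which part of Golm1 was removed, how many mice stood behind a culture or whether both states came from the same mice.

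A solute carrier gene usually encodes a protein with many membrane-spanning helices that works alone, as a pair or with a small partner protein. Some are facilitators that let a solute run down its gradient, and others couple an uphill solute to sodium or protons. Activated dendritic cells and macrophages are known for a high glucose uptake and lactate release, for amino acid uptake that feeds growth signalling, and for the handling of zinc and iron away from microbes.

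The values are log2 ratios of KO over WT per gene, so that 0 means equal levels and 1 a doubling. Levels per library were not analysed here. In unstimulated cells the authors' p-values are closest to 1 at a deposited ratio of 0.19 and not at 0, while in stimulated cells this zero point lies at -0.04. Some deposited ratios are exactly 0, 1 or 2, or are 1.58496, values that ratios of small whole numbers give. Ratios of read counts not scaled to library depth would take such values. The zero point may thus hold a difference in depth between the libraries, which was not tested. Ratios below are given relative to that zero point, and for called genes a sign that turns without this centring is named beside the result. Among members that were not called, the sign of 75 of 219 in unstimulated and of 26 of 212 in stimulated cells turns without it, so no direction is read from those ratios. The error after ± is a counting standard error derived from the deposited p-value. With 1 library per group it can cover the sampling of reads but no difference between cultures, and it is left out for ratios within 0.02 of 0, where it is poorly fixed. A gene is called where the Benjamini-Hochberg adjusted p, computed from the authors' p-values over all genes of a table, is under 0.001. Such a call compares 2 libraries and has no replicate check. Counts without centring keep these calls but take the sign of the deposited ratio. That sign is not a tested direction, since the p-values are closest to 1 at the zero point. In these bulk libraries, fewer cells of a type and less RNA per cell cannot be told apart.

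Golm1 was at -2.09 ± 0.098 without and -2.00 ± 0.10 with stimulation, lower in the KO library of each state. Over all genes, 4.7% were called higher and 4.27% lower in unstimulated cells, and 5.36% and 6.54% in stimulated cells. Beside these shares, dendritic cell markers had 7 of 15 listed genes called higher and 1 lower in unstimulated cells. In stimulated cells 8 of them were higher and 1 lower. Macrophage and monocyte markers had 8 higher and 2 lower of 15, then 6 higher and 2 lower. Stromal and endothelial markers had 4 of 13 called higher and 0 lower, then 6 higher and 2 lower, with list medians of 0.52 and 0.53. Lymphocyte markers had 1 of 14 called higher in each state. Neutrophil markers had 2 of 10 and 1 of 8 called lower, mast cell, basophil and eosinophil markers 1 of 6 and 1 of 4 lower, and erythroid markers 0 of 3 called in each state. Called at 1.5-fold or more were the dendritic cell lectin gene Clec10a (0.84 ± 0.11 without and 0.86 ± 0.15 with stimulation), the macrophage genes C1qb (0.999 ± 0.15 and 0.94 ± 0.15), C1qc (0.74 ± 0.14 and 0.65 ± 0.15) and Fcgr1 (0.66 ± 0.045 without stimulation), and the granzyme genes Gzma (0.86 ± 0.16 without) and Gzmb (0.68 ± 0.15 with stimulation). Of the stromal list, the collagen gene Col3a1 was at 3.06 ± 0.58 and 6.27 ± 0.40, Col1a2 at 1.36 ± 0.29 and 2.77 ± 0.21 and the fibronectin gene Fn1, which macrophages also express, at 1.07 ± 0.092 and 1.43 ± 0.073. With stimulation Col1a1 (3.51 ± 0.19) and Sparc (1.99 ± 0.20) were also higher and Pdgfrb (-0.74 ± 0.15) lower. Markers of the same lists were also called lower by less than 1.5-fold. Sirpa of the dendritic cell list was at -0.23 ± 0.015 and -0.17 ± 0.013. Of the macrophage list, Csf1r was at -0.27 ± 0.015 and -0.15 ± 0.016, and Marco at -0.45 ± 0.052 and -0.36 ± 0.051. Kdr of the stromal and endothelial list was lower with stimulation (-0.41 ± 0.084). The part of these cell markers in the ratios of the carriers was not tested.

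In unstimulated cells 28 of the 247 solute carrier genes were called, 11 higher and 17 lower in the KO library. Without centring, the deposited ratios of these 28 lie above 0 for 15 and below 0 for 13. The share called was 11.3%, beside 8.96% of all genes of that table, and the shares called higher and lower were 4.45% and 6.88%, beside 4.7% and 4.27% of all genes. In stimulated cells 35 of 247 (14.2%) were called, beside 11.9% of all genes. Of these, 13 (5.26%) were higher and 22 (8.91%) lower, beside 5.36% and 6.54% of all genes. Family groups and gene lists were counted at the same threshold, so these shares of all genes stand beside their counts too. With centring, the share of higher calls was near that of all genes in both states, and the share of lower calls lay above it. Without centring, 6.07% of the unstimulated members were called with a ratio above 0 and 5.26% with a ratio below it. The shares of all genes were 6.56% and 2.4%. These are signs of ratios and not tested directions. Medians over the solute carrier genes were 0.00 without and -0.02 with stimulation, beside 0.00 and 0.01 over all genes; without centring the unstimulated median of the members was 0.19.

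Most of the differences were small. At 1.5-fold or more, 4 solute carrier genes (1.62%) were called in each state, beside 0.708% of all genes without and 1.02% with stimulation. With centring, these were Slc15a2, Slc7a4, Slc6a9 and Slc6a12 in unstimulated cells, and Slc7a4, Slc39a8, Slc28a3 and Slc17a8 in stimulated cells. Without centring, Slc6a12 (-0.41, unstimulated) and Slc39a8 (0.55, stimulated) fall short of 1.5-fold, and Slc16a6 (0.69, unstimulated) reaches it. At an adjusted p under 0.05, 50 (20.2%) and 60 (24.3%) were called, beside 17.9% and 21.9% of all genes. The authors' deposited table marked 4 solute carrier genes as differentially expressed in unstimulated cells (Slc7a4 at 0.85, Slc16a6 at 0.69, Slc15a2 at 0.97 and Slc6a9 at -0.70 as deposited). The authors' deposited table of stimulated cells marked 3 (Slc28a3 at -0.71, Slc17a8 at -1.28 and Slc7a4 at 0.69), and 0 were among the authors' key genes in either table.

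Precision set what could be called. In unstimulated cells 76 of 247 solute carrier genes had a counting error above that of 50 reads in each library (0.29 on the log2 scale), and in stimulated cells 74. Of the genes with a smaller error, 84.8% and 83.8% lay within 1.2-fold of 0, beside 88.8% and 86.6% of all genes of that precision. All 28 calls in unstimulated cells and 34 of the 35 in stimulated cells came from the precise genes, Slc17a8 being the exception. At an adjusted p under 0.05, Slc39a5 in unstimulated cells was the other imprecise member that passed.

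**Figure D1:**
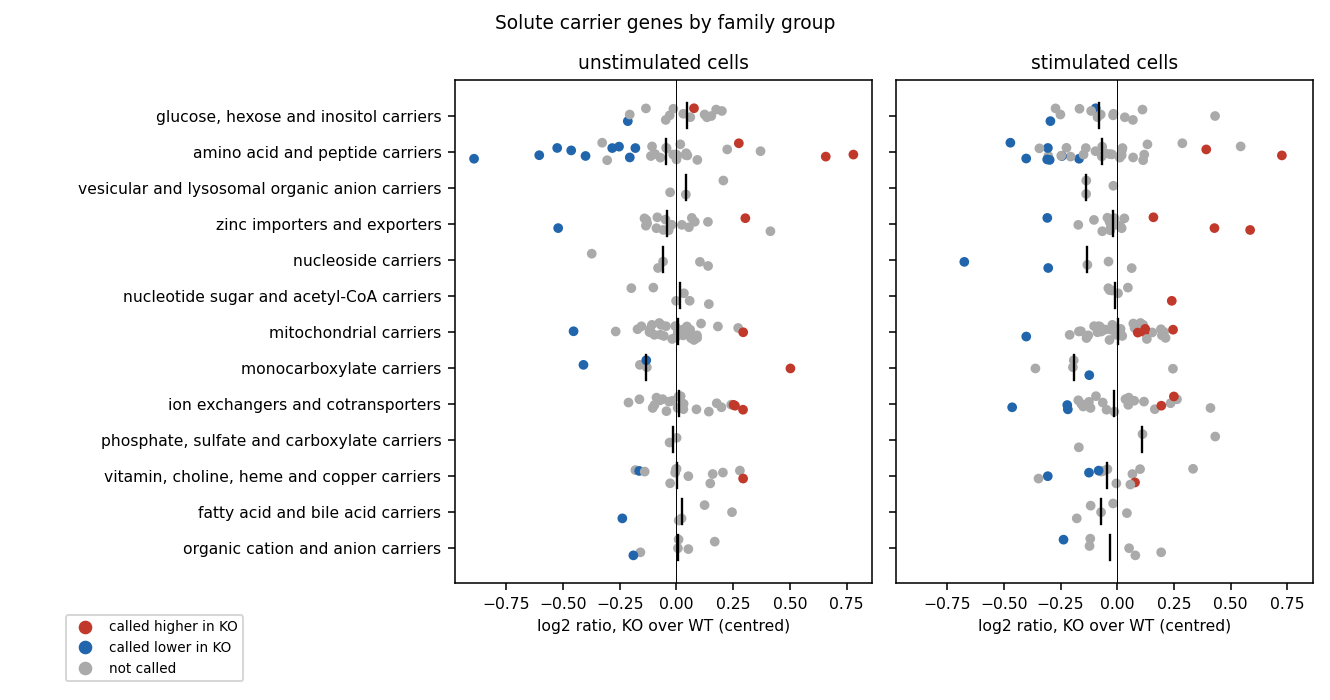
Each point is a solute carrier gene precise enough to match 50 reads per library, placed by its centred log2 ratio of KO over WT (x axis) in the row of its family group (y axis). The black bar is the median of the row, and colours mark called genes. Amino acid carriers, the largest group, hold the most calls, with 12 in unstimulated and 9 in stimulated cells, and mitochondrial carriers cluster near 0. Without centring every unstimulated point would lie 0.19 further right.

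The same genes were often called in both states, among the members and among all genes. The 2 states share no library. Among the 240 members that both tables hold, 10 (4.17%) had lower calls in each and 6 (2.5%) higher calls, beside 2.23% and 2.96% of all genes. A single gene, Slc2a1, was called in opposite directions (0.417%, beside 0.277% of all genes). By the sign of the deposited ratio alone, 6 called genes lay below 0 in both states (2.5%, beside 1.42% of all genes). Another 6 lay above 0 in both, and 5 had opposite signs (2.08%, beside 1.06%). These 17 genes are 60.7% of the unstimulated and 48.6% of the stimulated calls. Over all genes, 439 were called higher in both states, 331 lower in both and 41 in opposite directions. These came from 1380 unstimulated and 1822 stimulated calls, so calls in both states were common among all genes too. The 10 lower genes were Slc6a12, Slc6a13, Slc43a3, Slc25a37, Slc1a2, Slc2a6, Slc22a4, Slc6a6, Slc31a1 and Slc16a3. Of these, Slc22a4, Slc6a6, Slc31a1 and Slc16a3 lie just above 0 in unstimulated cells without centring. The 6 higher genes were Slc7a4, Slc39a2, Slc7a5, Slc25a38, Slc12a7 and Slc12a4. Over the 170 members that were precise in both tables, Pearson's r between the states was 0.69 and Spearman's rho 0.62, given as a description across genes, which are not independent replicates. Over all 10979 genes of that precision, r was 0.50 and rho 0.45. Whether cultures of a genotype shared mice is not known.

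**Figure D2:**
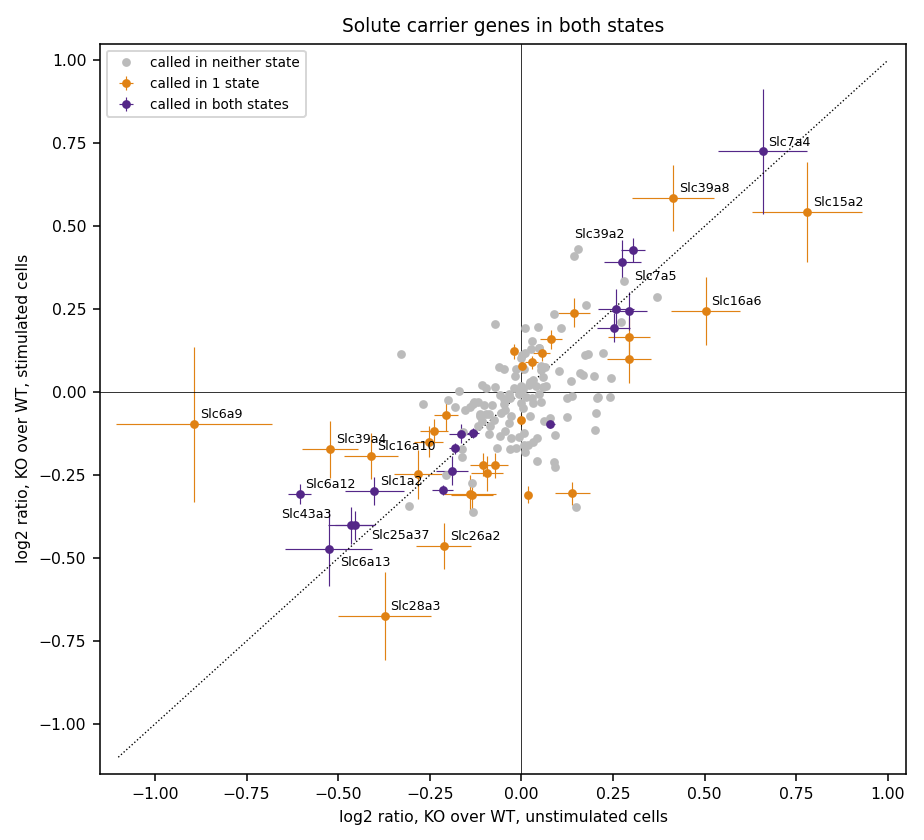
Each point is 1 of 170 solute carrier genes, with the centred log2 ratio of KO over WT in unstimulated cells on the x axis and in stimulated cells on the y axis. Bars are counting errors of genes called in at least 1 state, and the dotted line marks equal ratios. Slc6a12 and Slc6a9 lie above it, and Slc2a1 sits right of 0 and below 0.

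**Figure D3:**
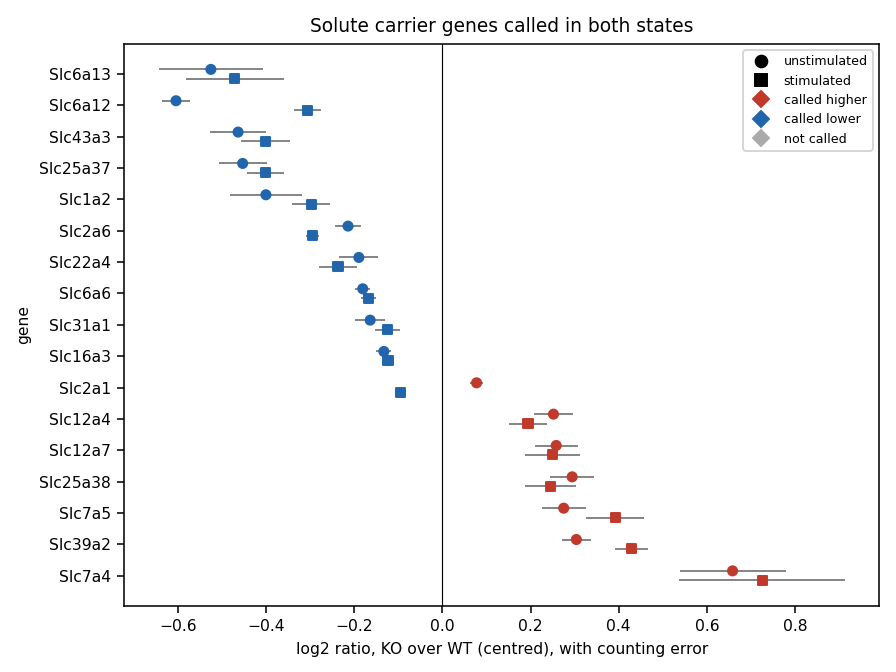
The 17 solute carrier genes called in both states are shown with their centred log2 ratio of KO over WT (x axis) in unstimulated (circles) and stimulated cells (squares), with counting errors as bars. Except for Slc2a1, both marks of a gene lie on the same side of 0. Without centring, the unstimulated marks of Slc22a4, Slc6a6, Slc31a1 and Slc16a3 would lie just above 0.

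Glucose enters myeloid cells mainly through facilitators of the Slc2 family. Slc2a1 encodes GLUT1, the widespread glucose transporter whose level rises on activation, and lies on chromosome 4 (119108745 to 119137330, GRCm38, protein-coding). It was called higher in unstimulated cells, at 0.08 ± 0.014 or 106% of the WT level (adjusted p = 7.3e-07 from the authors' p-values), and lower in stimulated cells, at -0.10 ± 0.013 or 93.6% (adjusted p = 1.5e-11). Both differences were under 1.1-fold, and their signs were the same with every centring tried. Slc2a6 encodes GLUT6, a lysosomal glucose transporter of inflammatory macrophages. It was lower in both states, at -0.21 ± 0.029 (86.2% of WT) in unstimulated and -0.29 ± 0.016 (81.5%) in stimulated cells. Slc2a3, a further glucose transporter gene, was not called, at 0.20 ± 0.14 and -0.12 ± 0.15. Over the whole group of glucose, hexose and inositol carriers, 1 of 21 listed genes was called higher and 1 lower in unstimulated cells, and 0 of 18 higher and 2 lower in stimulated cells. Groups follow family numbers and not the substrate of each member. The inositol carrier gene Slc5a3 had ratios of -0.21 ± 0.076 and -0.25 ± 0.080 and was not called. The carriers of glucose 6-phosphate into the endoplasmic reticulum, Slc37a2 and Slc37a4, were within 0.07 of 0 in both states and not called. Slc37a1, of the same family, was at 0.18 ± 0.059 and 0.11 ± 0.065 and was not called either.

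The sequence before the start of Slc2a1 is shown because this gene was the single member called in opposite directions with centring. It was read from the RefSeq promoter table of GRCm38.p6 (chr4:119108495-119108744, plus strand) and ends at the base before the start. Capitals mark every match, on either strand, of 6 motifs: a GAS element (TTCNNNGAA), an interferon response core (GAAA, 2 of any base, GAAA), an NF-kB site (GGG, 5 of any base, CC), the HIF core (ACGTG), a metal response core (TGCGCNC) and the GC box (GGGCGG). 
Slc2a1: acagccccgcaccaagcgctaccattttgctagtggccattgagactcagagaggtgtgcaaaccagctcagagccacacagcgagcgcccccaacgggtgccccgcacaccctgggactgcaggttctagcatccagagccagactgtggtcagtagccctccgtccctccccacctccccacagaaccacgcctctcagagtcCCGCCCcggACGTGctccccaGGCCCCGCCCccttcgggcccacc
In this window lie 1 HIF core, 2 GC boxes on the minus strand and 1 NF-kB match that overlaps a GC box. Of 27025 windows of the same length, 1 per gene at its most upstream listed start, 16.5% hold the HIF core, 33% the GC box and 45.4% the NF-kB letters. Of the 195 solute carrier genes in that table, 21.0%, 57.4% and 62.6% hold them. Such matches describe letters and not binding.

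Slc2a1 and the lactate exporter gene Slc16a3 are textbook targets of the oxygen-sensing factor HIF-1. The other HIF-1 response genes were therefore counted from a separate list of 12. In unstimulated cells 2 were called higher and 4 lower, beside 4.7% and 4.27% of all genes. In stimulated cells 1 was called higher and 9 lower, beside 5.36% and 6.54% of all genes. The list medians were -0.14 and -0.24, beside 0.00 and 0.01 for all genes. Without centring the unstimulated list median was 0.05. Ero1l, an oxidase of protein folding, was at -0.37 ± 0.018 and -0.46 ± 0.018. The glycolytic regulator gene Pfkfb3 was at -0.13 ± 0.034, not called, and -0.44 ± 0.023, called lower. Vegfa was lower in both states (-0.18 ± 0.010 and -0.13 ± 0.012), and without centring the unstimulated ratios of Vegfa and Bnip3 lie just above 0. Hif1a itself was called higher in both, at 0.14 ± 0.023 and 0.12 ± 0.020. Ldha, the lactate dehydrogenase gene, stood at 0.03 ± 0.0076 in each state and passed the threshold in unstimulated cells alone.

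Amino acid and peptide carriers, the largest group, held more calls than any other group. In unstimulated cells 3 of 46 listed genes were called higher and 9 lower, and in stimulated cells 2 higher and 7 lower; without centring the unstimulated counts were 4 and 8, since Slc6a6 turns. The group medians were -0.08 and -0.06, the unstimulated one being 0.11 without centring. Slc43a3 is known to carry purine nucleobases. Without it, 3 (6.67%) were higher and 8 (17.8%) lower of 45 in unstimulated cells, beside 4.7% and 4.27% of all genes. In stimulated cells the counts without it were 2 (4.44%) and 6 (13.3%), beside 5.36% and 6.54% of all genes. Carriers of the Slc6 family take up amino acids and neurotransmitters with sodium and chloride. With centring, 4 of 13 were called lower in unstimulated and 3 of 13 in stimulated cells, and 0 higher in either. Without centring, the called gene Slc6a6 lies just above 0 in unstimulated cells.

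Slc6a12 encodes a carrier of the osmolyte betaine and of GABA. It stood at -0.60 ± 0.031 in unstimulated cells, 65.8% of the WT level (adjusted p = 6.4e-82 from the authors' p-values), and at -0.31 ± 0.030 in stimulated cells, 80.9% of WT (adjusted p = 1.5e-22). Slc6a13, a GABA carrier, stood at -0.53 ± 0.12 and -0.47 ± 0.11, or 69.5% and 72.1% of WT. The 2 genes are neighbours on chromosome 6, Slc6a13 at 121300288 to 121337721 and Slc6a12 at 121342574 to 121365773 (GRCm38), in tandem with a gap of 4852 bases. Among 17 pairs of neighbouring solute carrier genes within 50000 bases of each other, theirs was the single pair called in the same direction, in each state. Several of these pairs hold imprecise members, a gene not listed in stimulated cells or entries that are no carriers. Neighbouring genes outside the members were not counted, so no share over all genes stands beside this. Slc6a6, the carrier of the osmolyte taurine, was at -0.18 ± 0.017 and -0.17 ± 0.017, also called lower in both states. Its unstimulated ratio lies just above 0 without centring. Slc6a9, a glycine carrier, was at -0.89 ± 0.21 (53.9% of WT, adjusted p = 0.00035 from the authors' p-values) in unstimulated cells and at -0.10 ± 0.23 in stimulated cells, where it was not called. Of its exon bases 38.8% overlap Ccdc24 on the opposite strand, and whether counting used the strand is not stated, so its value is uncertain. The serotonin carrier gene Slc6a4 had ratios of -0.31 ± 0.12 and -0.34 ± 0.10 and the creatine carrier gene Slc6a8 -0.04 ± 0.028 and -0.05 ± 0.029; neither was called.

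The windows before the starts of this neighbouring pair are shown side by side because the genes moved together. Both are on the plus strand of GRCm38.p6, in the RefSeq promoter table, at chr6:121300038-121300287 for Slc6a13 and chr6:121342324-121342573 for Slc6a12. The table lists several starts for each gene, and the most upstream was used. Capitals again mark matches of the 6 motifs named for Slc2a1. 
Slc6a13: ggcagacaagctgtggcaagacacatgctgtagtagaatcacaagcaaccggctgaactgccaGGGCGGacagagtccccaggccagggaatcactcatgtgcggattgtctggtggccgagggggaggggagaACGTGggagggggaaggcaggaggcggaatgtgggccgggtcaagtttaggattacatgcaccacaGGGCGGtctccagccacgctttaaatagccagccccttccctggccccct
Slc6a12: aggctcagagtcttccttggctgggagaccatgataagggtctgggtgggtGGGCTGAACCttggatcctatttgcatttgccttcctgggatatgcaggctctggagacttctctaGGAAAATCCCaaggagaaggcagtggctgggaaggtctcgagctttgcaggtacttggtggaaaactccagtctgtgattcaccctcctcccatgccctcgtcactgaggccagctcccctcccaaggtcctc
The Slc6a13 window holds 2 GC boxes and 1 HIF core. The Slc6a12 window holds 2 NF-kB matches and none of the other 5 motifs, so the pair shares no motif of those searched. Among the 7 genes called lower in both states that the table holds, 0 had a GAS element and 0 an interferon response core. These 2 motifs are rare, in 7.14% and 3.05% of all windows and in 5.13% and 1.54% of the solute carrier windows. Thus 0 among 7 genes shows no lack of them. The NF-kB letters were found in 4 of the 7, the HIF core in 3 and the GC box in 5. Of the solute carrier windows, 62.6%, 21.0% and 57.4% hold them. With 7 genes, neither an excess nor a lack is read from these counts.

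Large neutral amino acids are exchanged by light chains that pair with the heavy chain of Slc3a2. Slc7a5 encodes LAT1, the light chain that carries leucine into activated cells. It was higher in both states, at 0.28 ± 0.050 (121% of WT) and 0.39 ± 0.066 (131%). Slc7a8, the light chain LAT2, was at 0.02 in unstimulated cells, not called, and at -0.31 ± 0.026 (80.7% of WT) in stimulated cells. The heavy chain gene Slc3a2 stood at 0.00 and 0.02 and was not called, so the light chain genes went apart while their shared partner stayed near 0. Slc7a4, an Slc7 family member of uncertain substrate, was at 0.66 ± 0.12 and 0.73 ± 0.19, called higher in both. The arginine and lysine carrier gene Slc7a1 was at 0.04 ± 0.057 and -0.21 ± 0.057 and was not called. Slc7a7, a light chain for cationic amino acids, was at 0.22 ± 0.063 and 0.12 ± 0.076, not called.

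Carriers of glutamate, glutamine and peptides made up most of the rest of this group. Slc1a2, a glutamate carrier, was lower in both states at -0.40 ± 0.081 and -0.30 ± 0.043. The glutamine carrier gene Slc1a5 stayed near 0 (-0.05 ± 0.044 and -0.02 ± 0.051). Slc38a2, a glutamine carrier induced when amino acids run short, was at -0.25 ± 0.040, called lower, and -0.15 ± 0.046, not called. Slc36a1 and Slc36a4 encode proton-coupled amino acid carriers. Slc36a4 was called lower in unstimulated cells (-0.28 ± 0.066, then -0.25 ± 0.074) and Slc36a1 in stimulated cells (-0.09 ± 0.044, then -0.24 ± 0.052). Slc15a2, a proton-coupled importer of small peptides, was the highest called member in unstimulated cells at 0.78 ± 0.15 (172% of WT), and at 0.54 ± 0.15 in stimulated cells it was not called. The lysosomal peptide and histidine carriers Slc15a3 and Slc15a4, known for a part in signalling from endosomes, were not called. Slc15a3 was at 0.00 and -0.03 ± 0.0094 and Slc15a4 at -0.11 ± 0.044 and 0.02 ± 0.047. Within the Slc43 family, Slc43a2, a neutral amino acid carrier, was called lower in unstimulated cells at -0.21 ± 0.034 and was at -0.07 ± 0.048 in stimulated cells. Slc43a3, placed here by its family number, was lower in both at -0.46 ± 0.063 and -0.40 ± 0.055, or 72.5% and 75.7% of WT.

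**Figure D4:**
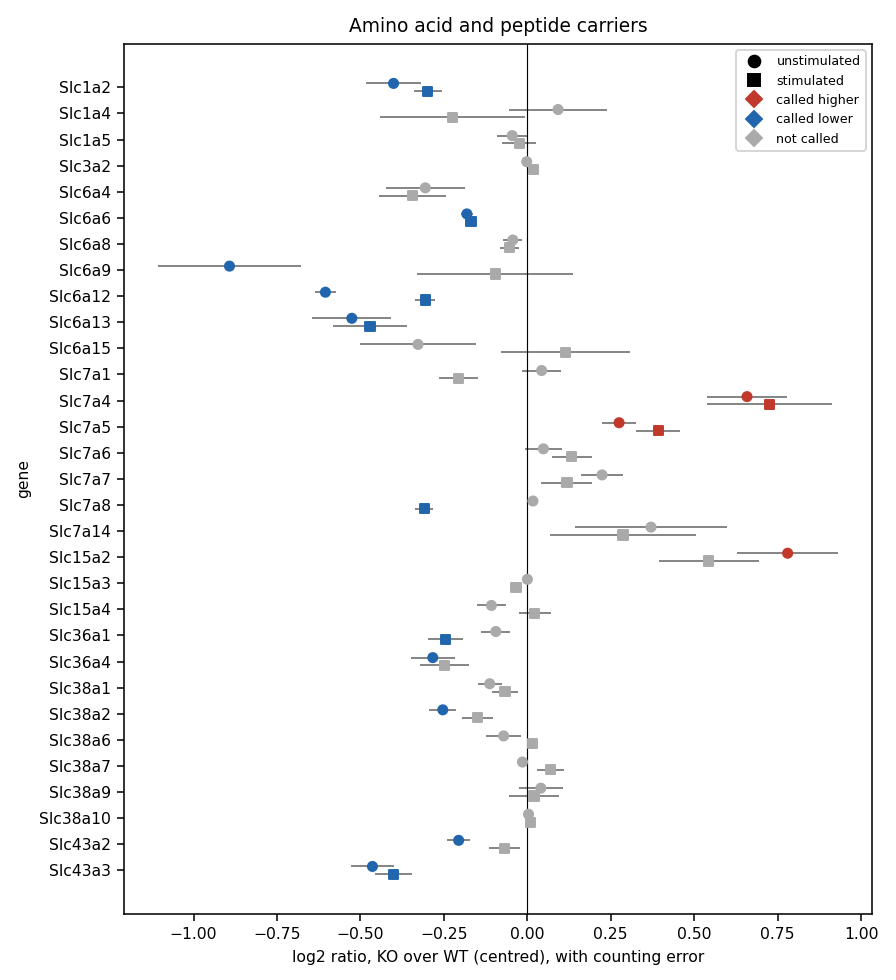
Amino acid and peptide carriers that were precise in both tables, ordered by family. The x axis is the centred log2 ratio of KO over WT with counting errors, circles are unstimulated and squares stimulated cells, and colour marks a call. The Slc6 and Slc43 genes that were called lie left of 0, Slc7a4, Slc7a5 and Slc15a2 lie right of it, and Slc7a8 departs from 0 in stimulated cells alone. Without centring every circle would lie 0.19 further right, which puts Slc6a6 just above 0.

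The genes of the amino acid response, which ATF4 drives when amino acids are scarce, were counted beside the carriers. Of 12 listed, 1 was called higher and 1 lower in each state, and the medians were -0.03 (0.17 without centring) and -0.05. Over all genes, 4.7% were called higher and 4.27% lower in unstimulated cells, and 5.36% and 6.54% in stimulated cells. The higher gene was Ddit3 (0.15 ± 0.034 and 0.17 ± 0.039) and the lower gene Ddit4, an inhibitor of mTOR signalling (-0.23 ± 0.034 and -0.35 ± 0.033). Atf4 itself was at -0.02 and -0.04 ± 0.015, and Asns, the asparagine synthetase gene, at -0.24 ± 0.085 and -0.06 ± 0.087; neither was called.

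Zinc is moved into the cytosol by the Slc39 (ZIP) family and out of it, to the outside or into vesicles, by the Slc30 (ZnT) family. Of 21 listed zinc carrier genes, 1 was called higher and 1 lower in unstimulated cells, and 3 higher and 1 lower in stimulated cells, with medians of -0.03 in both, the unstimulated one being 0.16 without centring. Slc39a2 (ZIP2, chromosome 14, 51893082 to 51896745) was called higher in both states. It was at 0.30 ± 0.033 (123% of WT) in unstimulated and 0.43 ± 0.037 (135%) in stimulated cells. Slc39a8, the importer ZIP8 that limits NF-kB signalling, was at 0.41 ± 0.11 (not called) and 0.59 ± 0.10 (150% of WT, called higher). Slc39a4, an importer best known from the gut, was at -0.52 ± 0.076 (69.7% of WT) in unstimulated cells and at -0.17 ± 0.087, not called, in stimulated cells. Slc39a14, an importer of zinc and iron that inflammation induces, was at -0.13 ± 0.058 and -0.31 ± 0.048, called lower in stimulated cells.

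Among the exporters, Slc30a4 was called higher in stimulated cells at 0.16 ± 0.028, after 0.08 ± 0.029 in unstimulated cells. Slc30a1, the exporter of the plasma membrane and a target of the zinc sensor MTF1, stayed near 0 (-0.06 ± 0.051 and -0.01). Slc39a5 had a ratio of 1.76 ± 0.51 in unstimulated cells and -0.19 ± 0.46 in stimulated cells and was not called. Of 4 zinc response genes, the metallothionein genes Mt1 (0.05 ± 0.011 and 0.07 ± 0.012) and Mt2 (0.10 ± 0.013 and 0.05 ± 0.012) were called higher in both states by less than 1.1-fold. Mtf1 and Mt3 were not called.

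**Figure D5:**
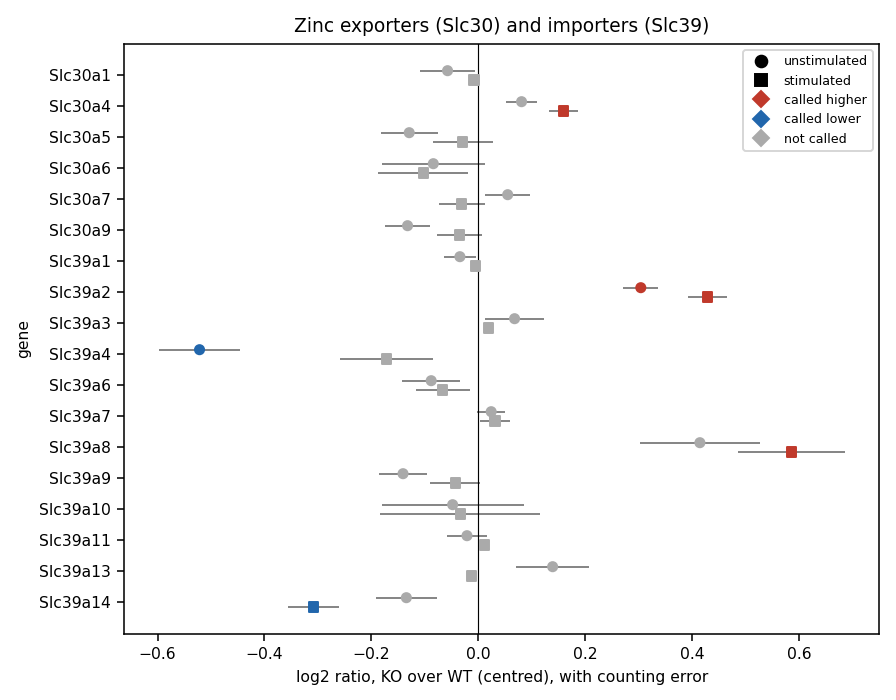
Zinc exporters (Slc30) and importers (Slc39) that were precise in both tables, by centred log2 ratio of KO over WT (x axis) with counting errors. Circles are unstimulated and squares stimulated cells, and colour marks a call. The called marks of Slc39a2 and Slc39a8 lie right of 0, those of Slc39a4 and Slc39a14 lie left of it, and the exporters lie close to it. Without centring every circle would lie 0.19 further right.

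Nucleosides enter cells through sodium-coupled Slc28 carriers and Slc29 facilitators. Of 6 listed, 0 were called in unstimulated cells and 2 in stimulated cells, both lower. Slc28a2, a purine nucleoside carrier, was at 0.14 ± 0.047 (not called) in unstimulated cells and at -0.30 ± 0.034, or 81.0% of WT, in stimulated cells (adjusted p = 3.4e-17 from the authors' p-values). Slc28a3, a carrier of broad nucleoside range, was at -0.37 ± 0.13, not called, and -0.67 ± 0.13, or 62.7% of WT. The lysosomal facilitator gene Slc29a3 was at -0.06 ± 0.033 and -0.13 ± 0.035 and the surface facilitator gene Slc29a1 at -0.08 ± 0.053 and -0.04 ± 0.060; neither was called. Carriers of nucleotide sugars and acetyl-CoA, which feed glycosylation and acetylation in the Golgi apparatus and endoplasmic reticulum, had 6 listed members. Of these, 1 was called, Slc33a1, the acetyl-CoA carrier, at 0.14 ± 0.044 in unstimulated (not called) and 0.24 ± 0.044 in stimulated cells (called higher). An antisense gene overlaps 32% of its exon bases. The Slc35a genes ranged from -0.20 to 0.06 in unstimulated and from -0.04 to 0.05 in stimulated cells.

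Mitochondrial carriers of the Slc25 family move nucleotides, phosphate, amino acids and cofactors across the inner membrane. With 41 and 43 listed genes they were among the largest groups. In unstimulated cells 1 was called higher and 1 lower, beside 4.7% and 4.27% of all genes. In stimulated cells 4 were called higher and 1 lower, beside 5.36% and 6.54% of all genes. The medians were 0.00 (0.19 without centring) and 0.01. Slc25a37 encodes mitoferrin, the importer of iron for heme and iron-sulfur cluster synthesis. It was lower in both states at -0.45 ± 0.055 (73.0% of WT) and -0.40 ± 0.042 (75.7%). Slc25a38, which brings in glycine for heme synthesis, was higher in both at 0.29 ± 0.050 and 0.25 ± 0.058. Of the other members, 3 were called higher in stimulated cells, each by less than 1.1-fold. These were the ADP/ATP exchanger genes Slc25a4 (0.12 ± 0.024) and Slc25a5 (0.12 ± 0.023) and the phosphate carrier gene Slc25a3 (0.09 ± 0.019). Their unstimulated ratios were 0.06 ± 0.023, -0.02 and 0.03 ± 0.018. Processed copies of the exchanger genes exist in the genome, so their reads may have been split in counting and these values are uncertain. The pyruvate carrier of the same membrane, encoded outside the Slc symbols by Mpc1 and Mpc2, was called higher in stimulated cells for both genes (0.22 ± 0.042 and 0.33 ± 0.070) and in neither in unstimulated cells (-0.01 and 0.12 ± 0.061).

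Monocarboxylate carriers of the Slc16 family move lactate, pyruvate, ketone bodies and aromatic amino acids. In unstimulated cells 1 of 13 was called higher and 2 lower, and in stimulated cells 0 higher and 1 lower; without centring the unstimulated counts were 2 and 1. Slc16a3 encodes MCT4, the lactate exporter of glycolytic cells. It stood at -0.13 ± 0.017 (91.2% of WT) and -0.12 ± 0.014 (91.8%), called lower in both states. Slc16a10, the aromatic amino acid carrier TAT1, was at -0.41 ± 0.073, called lower, and -0.19 ± 0.069, not called. Slc16a6 was at 0.50 ± 0.094 (142% of WT), called higher, and 0.25 ± 0.10, not called; 13.5% of its exon bases overlap Amz2 on the opposite strand. Emb, which encodes a chaperone that brings such carriers to the surface, was called lower in both states at -0.24 ± 0.022 and -0.14 ± 0.023. The other chaperone gene, Bsg, was at -0.04 ± 0.014 and -0.01 and was not called.

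Ion exchangers and cotransporters set cell volume, pH and calcium. Of 38 listed, 3 were called higher and 0 lower in unstimulated cells, and 2 higher and 3 lower in stimulated cells. Slc12a4 and Slc12a7 encode potassium-chloride cotransporters, which release salt when cells swell. Slc12a4 was higher in both states at 0.25 ± 0.045 and 0.19 ± 0.044, and Slc12a7 at 0.26 ± 0.049 and 0.25 ± 0.063. Slc8a1, the sodium-calcium exchanger, was at 0.29 ± 0.058, called higher, and 0.17 ± 0.059, not called. The sulfate carrier gene Slc26a2 was at -0.21 ± 0.075 and -0.46 ± 0.069, or 72.5% of WT, called lower in stimulated cells.

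Vitamin, choline, heme and copper carriers had 1 of 16 called higher and 1 lower in unstimulated cells (2 and 0 without centring), and 1 of 17 higher and 3 lower in stimulated cells. The copper importer gene Slc31a1 was lower in both states (-0.16 ± 0.034 and -0.12 ± 0.029), although without centring its unstimulated ratio lies just above 0. Its family member Slc31a2 was at 0.00 and -0.08 ± 0.018, called lower in stimulated cells. Slc44a1, which carries choline for phospholipid synthesis, was at -0.14 ± 0.071 and -0.31 ± 0.058, called lower in stimulated cells. Slc52a3, a riboflavin carrier, was called higher in unstimulated cells at 0.29 ± 0.061 and stood at 0.10 ± 0.072 in stimulated cells. Slc48a1, the heme carrier of phagolysosomes, was at 0.00 and 0.08 ± 0.020, called higher in stimulated cells.

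Of the remaining groups, 3 held 1 called gene each. Slc22a4, a carrier of ergothioneine and carnitine among 9 listed organic cation and anion carriers, was lower in both states (-0.19 ± 0.044 and -0.24 ± 0.043), with an unstimulated ratio just above 0 without centring. Slc27a4, a fatty acid carrier, was at -0.24 ± 0.039, called lower, and -0.12 ± 0.037, not called. Slc17a8, a vesicular glutamate carrier, had the lowest called ratio of the stimulated table, at -1.24 ± 0.31 (42.2% of WT, adjusted p = 0.0005 from the authors' p-values), on few reads; it was at -0.89 ± 0.64 in unstimulated cells. Of 5 phosphate, sulfate and carboxylate carriers 0 were called, Slc20a1, the phosphate importer, missing the threshold in stimulated cells (0.11 ± 0.029). Slc20a2, of the same family, was at -0.03 ± 0.086 and -0.17 ± 0.093. The 2 urea carrier genes and the 7 entries that match by symbol alone had 0 calls. A further list held carriers and chaperones outside the symbol rule, and also Slc9a3r1, which matches by symbol alone and was not called. Of its 19 genes, 0 were called higher and 4 lower in unstimulated cells, and 2 higher and 2 lower in stimulated cells. Besides those named, these were Mfsd6 (-0.44 ± 0.088), Slco4a1 (-0.41 ± 0.047) and Tmem165, a Golgi ion carrier (-0.21 ± 0.039), lower in unstimulated cells, and Slco3a1 (-0.25 ± 0.024), lower in stimulated cells.

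With 1 library in each group, the change of a ratio between the states could not be tested, and the values follow without a p. These changes depend on the centring, since the zero points of the tables differ. As deposited, they may also hold a difference in depth between the libraries, which was not tested. Slc28a2 moved by -0.44 ± 0.058 from unstimulated to stimulated cells, or by -0.67 with the ratios of the authors' deposited table. Slc2a1 moved by -0.17 ± 0.019, or -0.40 as deposited. Slc7a8 moved by -0.33, with its unstimulated error not given, or -0.55 as deposited. Slc6a12 moved by 0.30 ± 0.043 (0.07 as deposited), Slc39a4 by 0.35 ± 0.12 (0.12 as deposited) and Slc6a9 by 0.80 ± 0.32 (0.57 as deposited). With centring, Slc6a6 moved by 0.01 ± 0.024, Slc16a3 by 0.01 ± 0.022, Slc25a37 by 0.05 ± 0.069 and Slc12a7 by -0.01 ± 0.080. As deposited, these moved by -0.22, -0.22, -0.18 and -0.24. The errors cover counting in the 4 libraries and not the choice of zero point.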

How the data were processed

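Messenger RNA of 4 libraries was sequenced with a strand-specific preparation, per the labels' protocols. FastQC 0.10.1, HTSeq 0.6.0 and the build mm10 are named in the submitters' processing notes. No label or header states the aligner, the scaling, the strand setting or the test. The authors deposited a log2 fold change of KO over WT per gene, and a second measure that holds −log10 p in the deposited tables.

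The zero point was the median deposited ratio of genes with p above 0.99, and was subtracted. The counting error was the centred ratio divided by the normal deviate of the two-sided p, which assumes that this p came from a test of read sampling centred at the zero point. P-values were Benjamini-Hochberg adjusted over all genes of a table (scipy 1.17.1, pandas 2.3.3). The procedure was tested on simulated data. Members, family groups and lists were chosen with earlier results of these data known. Named genes were Slc2a1, Golm1, members called in both states, the 10 highest and 10 lowest called in each, the 3 of largest absolute ratio called in a family group (or the 2 of smallest error where none was), and list genes called at 1.5-fold or more; other genes were named after their values were seen. Positions came from RefSeq (GRCm38.p6; 253 of 254 members matched), exon overlaps from GENCODE M21. Alternatives were the ratios as deposited, median centring, precise genes only, a looser threshold and a fold minimum. Values of some members are not reported here.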

Additional observations from a re-analysis of the deposited data

Results flagged for a closer look

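Slc2a1 was called higher in unstimulated (0.08 ± 0.014) and lower in stimulated cells (-0.10 ± 0.013), opposite directions in the 2 states. The difference was -0.17 on the log2 scale (-0.40 with the ratios as the authors deposited them) and was not tested: with 1 library per group there is no replicate spread.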

How the results depend on the processing

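With ratios as deposited, the median solute carrier gene of unstimulated cells moved to 0.19. By sign alone, the calls there were 15 higher and 13 lower in place of 11 and 17. The number lower in both states fell from 10 to 6 and the number in opposite directions rose from 1 to 5. The calls themselves were the same, since the authors' p-values do not depend on the centring. The unstimulated ratios of Slc16a3 (0.0587), Slc22a4 (0.00202), Slc31a1 (0.0277) and Slc6a6 (0.0108) turned sign, since 0.19 was no longer subtracted. At an adjusted p under 0.05, 22 were called higher and 28 lower in unstimulated cells, 20 and 40 in stimulated cells, 12 and 18 in both states, and 2 in opposite directions. With at least 1.5-fold after centring, 2 were higher and 2 lower in each state. Median centring and the restriction to precise genes kept all 9 summary results on the same side, with counts within 1.5 times. No paired analysis was possible because each group has 1 library and the tables hold comparisons, not libraries. Depth per library is unknown, and 76 and 74 members had a larger counting error than 50 reads per library give.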
